A study of Mus musculus with 8 samples.

Results

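Synaptic vesicle and SNARE release genes were taken from the gene table by name. They were the rows of protein-coding genes whose symbols name synaptotagmins, syntaxins, VAMPs, SNAP-25 relatives, synapsins, SV2 proteins, complexins, RIMs, Munc13s, syntaxin-binding proteins or RAB3 GTPases. The rule found 72 of 43629 rows, with 71 different symbols, and used no measured value. RNA was sequenced from whole dorsal forebrain, the tissue that becomes the neocortex, of male mouse embryos on a mixed background that includes C57BL/6J, at embryonic day E12.5. In 4 samples, named Mut_295, Mut_317, Mut_337 and Mut_340, the genotype was Sufu-cKO, with 1 Emx1-cre allele and 2 floxed Sufu alleles. The other 4, named Cont_294, Cont_345, Cont_365 and Cont_370, were controls with 2 floxed alleles or 1 floxed and 1 unfloxed allele, and the labels do not say which sample had which. The control label names no cre, so the presence of cre and the loss of Sufu cannot be told apart. Emx1-cre acts in progenitors of the dorsal telencephalon and their descendants, so vessels, blood cells and neurons born elsewhere should keep Sufu. Sufu encodes an inhibitor of hedgehog signalling.

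Neurons release transmitter when a vesicle SNARE (a VAMP) zips together with SNAREs of the plasma membrane, a syntaxin and SNAP-25, and pulls the membranes into one. Munc18 and Munc13 proteins guide the assembly, RIMs and RAB3 hold vesicles at the release site, complexins hold the SNAREs ready, and synaptotagmins trigger fusion when calcium enters. SV2 proteins and synapsins sit on the vesicle itself. Relatives of these proteins move membrane inside every cell, so the families mix genes of neurons with genes of general trafficking. In the young cortex neurons build this machinery before most synapses exist, and much of the tissue is still dividing progenitors.

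The samples had totals of 27514357 to 34878838 counts. Sufu averaged 40.6 ± 4.64 CPM in Sufu-cKO and 112 ± 9.13 CPM in control samples (counts scaled to library size, SD, n = 4 each), and Gli1 and Ptch1, targets of hedgehog signalling, rose by 4.21 and 3.39 on the log2 scale. Sufu reads include exons outside the floxed part. Markers of the dorsal forebrain were present in all samples, and 4 of the 6 listed changed between the genotypes (edgeR). Emx2 averaged 122 ± 8.47 CPM in Sufu-cKO and 201 ± 19.6 CPM in control samples (log2 -0.72, adjusted p = 8.41e-05). Emx1 (log2 -0.73, adjusted p = 0.00831) and Lhx2 (log2 -0.51, adjusted p = 0.00169) fell as well, Tbr1 rose (log2 0.29, adjusted p = 0.00656), and Eomes did not pass (log2 0.13). The part of this shift in the results below was not tested. The labels do not state whether each sample is its own embryo or litter. The p-values therefore reflect the spread among these 8 samples only, part or all of which could be technical.

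Of the 72 members, 65 had enough counts to be tested, and 62 averaged at least 1 CPM. Between the genotypes, 14 of the 65 passed the test (21.5%; edgeR quasi-likelihood test, adjusted p under 0.05), against 11.0% of all 15382 tested genes. Higher levels in Sufu-cKO made up most of these calls: 11 members rose (16.9%, against 5.34% of all genes) and 3 fell (4.62%, against 5.64%). The genes that rose were Cplx2, Sv2b, Sv2c, Syt16, Syt1, Syt9, Syn1, Syt4, Stx2, Stx7 and Snap25, and those that fell were Syt7, Syt11 and Stx3. The groups did not overlap for 17 of 65 members (26.2%), against 16.2% of all tested genes. The median log2 fold change (Sufu-cKO over control) was 0.08 over the tested members and 0.01 over all tested genes. By the authors' deposited table, 12 of 70 members with a false discovery rate passed 0.05, 10 higher and 2 lower, against 5.78% of the genes listed there. That table passed Syt2 (false discovery rate 0.0358) and not Stx2, Stx7 or Syt11. Without Cont_345, 9 of 66 members passed (13.6%), against 6.93% of all genes. A stricter edgeR test, which asks for more than a 1.2-fold change, left 6 of 65 (9.23%), against 4.65% of all genes. In bulk tissue fewer cells of a type and less RNA per cell cannot be told apart, so each level below is a property of the whole tissue.

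**Figure D1:**
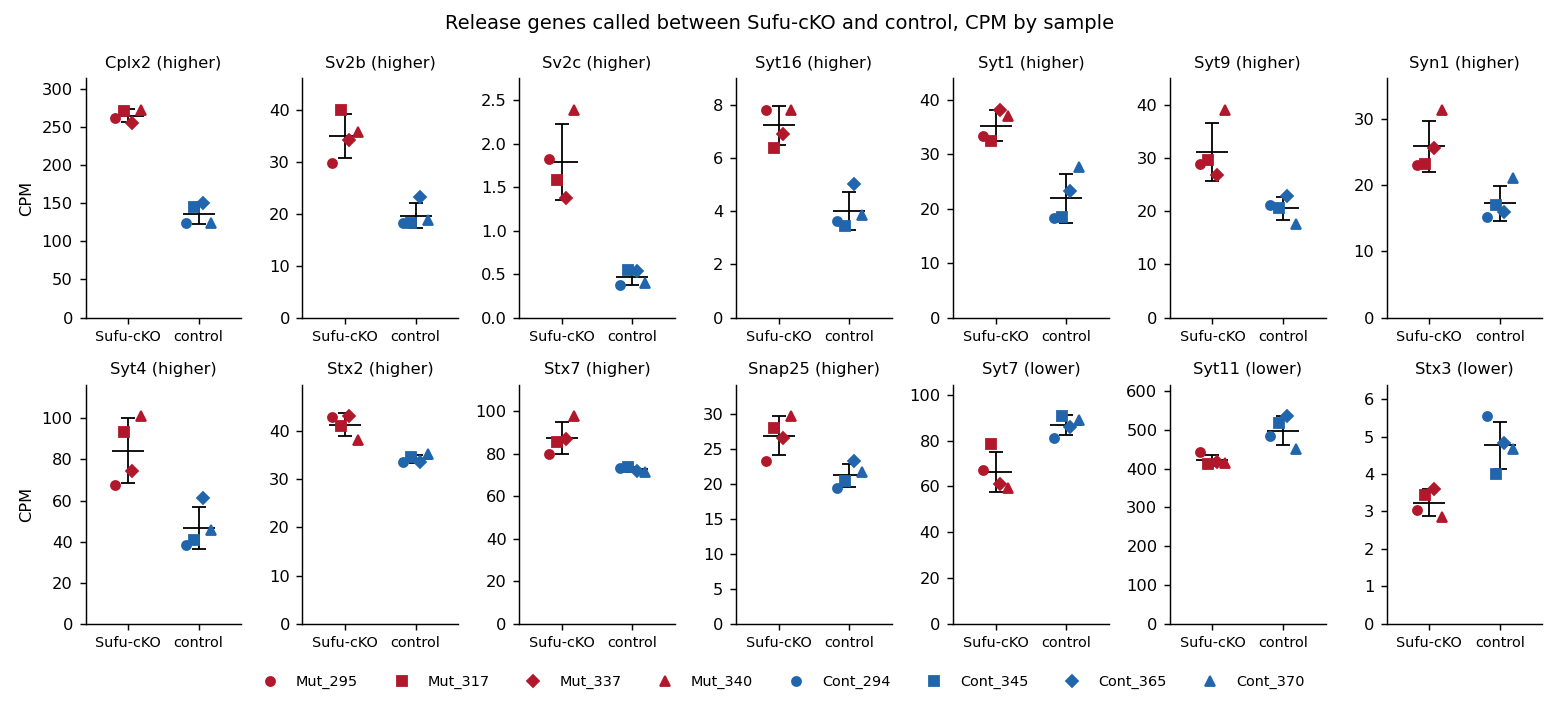
Levels of the 14 members that passed the test, in CPM on axes that start at 0, 1 symbol per sample, with the group mean ± SD in black; Sufu-cKO (red) stands left of control (blue) in each panel. All 11 members with higher levels and all 3 with lower levels separate the 4 Sufu-cKO from the 4 control samples, with the smallest gap for Snap25 (23.3 CPM in Mut_295, 23.2 CPM in Cont_365).

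Complexin 2 (Cplx2, ENSMUSG00000025867, GRCm38 chromosome 13, 54371349 to 54383917), a small protein that binds assembled SNAREs and both holds back and promotes fusion, changed most clearly. Its levels were 262, 271, 256 and 273 CPM in the Sufu-cKO samples and 125, 145, 150 and 124 CPM in the control samples. The 8 samples formed 2 tight groups a wide gap apart, with means of 265 ± 8.0 CPM in Sufu-cKO and 136 ± 13.7 CPM in control (SD, n = 4 each). The difference was 1.95-fold, or 0.96 on the log2 scale (SE 0.069, edgeR adjusted p = 4.31e-06). Complexin 1 (Cplx1), the close relative that dominates at many mature synapses, had 6.16 ± 0.958 CPM in Sufu-cKO and 7.0 ± 1.03 CPM in control samples, and its log2 difference of -0.19 did not pass (SE 0.154, adjusted p = 0.550). Per kilobase of exon, Cplx2 supplied 95.0% ± 0.702 of complexin transcript in Sufu-cKO and 89.6% ± 0.980 in control samples. The complexin sum was 56.6 CPM per kilobase in Sufu-cKO and 30.8 in control. Cplx3 and Cplx4, known mainly from retinal ribbon synapses, had 0 to 2 counts per sample and were not tested.

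Of the 3 SV2 genes, which encode glycoproteins of the vesicle membrane, 2 rose. Sv2b (ENSMUSG00000053025, chromosome 7, 75114897 to 75309262) had 29.8, 40.1, 34.3 and 35.8 CPM in Sufu-cKO and 18.3, 18.2, 23.2 and 18.9 CPM in control samples. Its lowest Sufu-cKO sample, Mut_295, stood above its highest control, Cont_365. The log2 difference was 0.83 (SE 0.107, edgeR adjusted p = 0.000354). Sv2c (ENSMUSG00000051111, chromosome 13, 95959443 to 96132577), which in the adult brain is found mostly in basal ganglia and brainstem, was rare, with 1.82, 1.58, 1.38 and 2.39 CPM in Sufu-cKO and 0.377, 0.547, 0.537 and 0.395 CPM in control samples. That was a 3.85-fold difference, the largest among the members that passed (log2 1.94, SE 0.257, adjusted p = 0.000435). Sv2a, the most abundant of the family and the target of the antiseizure drug levetiracetam, averaged 34.1 ± 3.23 CPM in Sufu-cKO and 29 ± 2.4 CPM in control samples. The groups overlapped for Sv2a and it did not pass (log2 0.23, SE 0.086, adjusted p = 0.126). As a share of SV2 transcript per kilobase, Sv2a made up 62.7% ± 4.53 in Sufu-cKO and 72.4% ± 0.764 in control, and Sv2b made up 35.7% ± 4.54 in Sufu-cKO and 27.0% ± 0.751 in control. Sv2c stayed a small part, at 1.58% ± 0.385 in Sufu-cKO and 0.553% ± 0.101 in control samples.

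Synapsins coat vesicles and tie them into a reserve pool. Syn1 (ENSMUSG00000037217, chromosome X, 20860511 to 20921004) had 23, 23.2, 25.6 and 31.4 CPM in Sufu-cKO and 15.1, 16.9, 16.0 and 21.1 CPM in control samples. Each genotype had 1 high sample, Mut_340 and Cont_370, and the groups did not overlap (log2 0.58, SE 0.126, edgeR adjusted p = 0.0115). Timp1 lies inside Syn1 on the opposite strand and shares 4570 bases of its span. It had 2.72 CPM in Sufu-cKO and 2.27 CPM in control samples (log2 0.26, adjusted p = 0.400). Syn2 and Syn3 did not pass, at log2 0.18 and 0.39. Timp3 lies within the span of Syn3 on the opposite strand, had 47.6 CPM in Sufu-cKO and 63.2 CPM in control samples, and fell (log2 -0.41, adjusted p = 0.000760). The strand setting of the counting is not given in the sources used here, so the values of Syn1 and, beside its far more abundant partner, Syn3 are uncertain. The same doubt holds for Syt2, which shares 7936 bases with Ppp1r12b on the opposite strand (66.6 CPM in Sufu-cKO, 59.4 CPM in control samples). Vamp3 shares 10664 bases of its span with Camta1 on its own strand (111 CPM in Sufu-cKO, 113 CPM in control samples). No strand setting would separate reads from exons shared on the same strand, so the values of Vamp3 are uncertain too. All these overlaps are of whole gene spans, introns included, and whether exons overlap was not tested. Some other members also overlap another gene.

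The sequences before the starts of Sv2b, Sv2c, Syt1 and Syn1 are shown because these vesicle genes rose together and their RefSeq starts lie within 86 bases of the deposited gene starts. Where RefSeq gives several starts (4 for Sv2b, 2 for Syt1), the one nearest to the deposited start was used. Each sequence is the 250 bases before the RefSeq start (GRCm38.p6), 5′ to 3′ on the gene's own minus strand, at chr7:75309263-75309512, chr13:96132578-96132827, chr10:109010976-109011225 and chrX:20920919-20921168. Capitals mark matches on either strand (CCGCCC is the GC box read on the other strand) to the GC box GGGCGG, the cyclic AMP response element TGACGTCA, and TTCAGCACC, the left part of the element bound by the repressor REST.
Sv2b: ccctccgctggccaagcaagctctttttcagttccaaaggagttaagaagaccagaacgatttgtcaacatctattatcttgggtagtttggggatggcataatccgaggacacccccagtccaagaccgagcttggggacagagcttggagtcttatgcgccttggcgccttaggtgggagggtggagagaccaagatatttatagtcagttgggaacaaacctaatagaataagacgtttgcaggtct
Sv2c: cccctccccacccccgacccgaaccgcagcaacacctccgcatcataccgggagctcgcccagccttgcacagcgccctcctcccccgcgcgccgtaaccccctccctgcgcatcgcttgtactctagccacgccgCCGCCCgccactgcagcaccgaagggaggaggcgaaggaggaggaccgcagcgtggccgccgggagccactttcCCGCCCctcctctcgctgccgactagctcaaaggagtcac
Syt1: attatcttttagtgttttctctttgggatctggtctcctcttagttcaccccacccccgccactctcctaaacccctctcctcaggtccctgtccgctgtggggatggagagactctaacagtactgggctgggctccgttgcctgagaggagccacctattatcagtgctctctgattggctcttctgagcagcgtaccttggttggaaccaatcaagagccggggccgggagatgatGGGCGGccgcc
Syn1: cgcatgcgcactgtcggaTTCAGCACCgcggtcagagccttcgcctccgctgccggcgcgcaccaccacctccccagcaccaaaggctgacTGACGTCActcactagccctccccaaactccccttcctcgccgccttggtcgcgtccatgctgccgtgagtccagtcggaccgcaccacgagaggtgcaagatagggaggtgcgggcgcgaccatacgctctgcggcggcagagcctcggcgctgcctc
Syn1 alone of 49 tested members with a RefSeq promoter held TTCAGCACC, on its own strand 232 bases before the start, against 0.333% of 13519 windows of tested coding genes. It was also the only one with TGACGTCA, 159 bases before the start, against 2.54% of those windows. The GC box was present in 36 of 49 members (73.5%, against 56.9% of windows), in Sv2c and Syt1 among them and not in Sv2b or Syn1, and in 6 of the 11 with a promoter that passed the test. The letters GACCACCCA, a form of the GLI binding motif, were in 0 of 49 windows, against 0.170% of coding windows, and CAGATG, an E-box form bound by proneural factors, was in 4 of 49, against 10.2%. Some of the 49 RefSeq starts lie far from the deposited start, by 68793 bases for Cplx2, 17514 for Stx4a and 2565 for Syt11. Cplx2 and Syt11 are among the 11 that passed, and whether those starts are used here was not tested. Both strands were searched, no motif is contained in another, and a match is a description of letters only.

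Synaptotagmins are the calcium sensors of fusion, and 6 of 14 tested members passed, 4 higher and 2 lower, beside 11.0% of all tested genes, with 5.34% higher and 5.64% lower. Syt1 (ENSMUSG00000035864, chromosome 10, 108497650 to 109010982), the fast sensor of forebrain synapses, had 33.4, 32.5, 38.2 and 37.1 CPM in Sufu-cKO and 18.3, 18.4, 23.3 and 27.6 CPM in control samples. All Sufu-cKO samples stood above all controls, although the controls themselves spread widely, with Cont_370 highest (1.61-fold, log2 0.69, SE 0.127, edgeR adjusted p = 0.00483). Syt9 (ENSMUSG00000062542, chromosome 7, 107370728 to 107548656), another fast sensor, had 28.9, 29.6, 26.8 and 39.1 CPM in Sufu-cKO and 21.2, 20.5, 22.8 and 17.6 CPM in control samples. Mut_340 led the Sufu-cKO samples, and the groups did not overlap (log2 0.60, SE 0.122, adjusted p = 0.00777). Syt2, the fast sensor of hindbrain and spinal synapses, was rare and missed the threshold although its groups did not overlap, with 3.10 ± 0.373 CPM in Sufu-cKO and 1.96 ± 0.627 CPM in control samples (log2 0.66, adjusted p = 0.0923).

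Syt7 (ENSMUSG00000024743, chromosome 19, 10389090 to 10453181), the slow, high-affinity sensor that also serves lysosome fusion outside neurons, went the other way. Its levels were 67.0, 78.4, 61.0 and 59.1 CPM in Sufu-cKO and 81.2, 90.8, 85.9 and 89.1 CPM in control samples. The closest pair was Mut_317 and Cont_294, and the groups did not overlap (log2 -0.39, SE 0.085, edgeR adjusted p = 0.0114). The calcium-binding synaptotagmins summed to 26.3 CPM per kilobase in Sufu-cKO and 25.4 in control samples, while the make-up of that sum differed. Syt7 held 33.7% ± 3.95 of it in Sufu-cKO and 45.7% ± 0.991 in control. Syt9 held 29.6% ± 3.96 in Sufu-cKO and 20.4% ± 2.89 in control, and Syt1 16.1% ± 2.02 in Sufu-cKO and 10.3% ± 1.77 in control. Syt3, Syt5 and Syt6 did not pass, with log2 values of -0.31, -0.10 and -0.54.

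**Figure D2:**
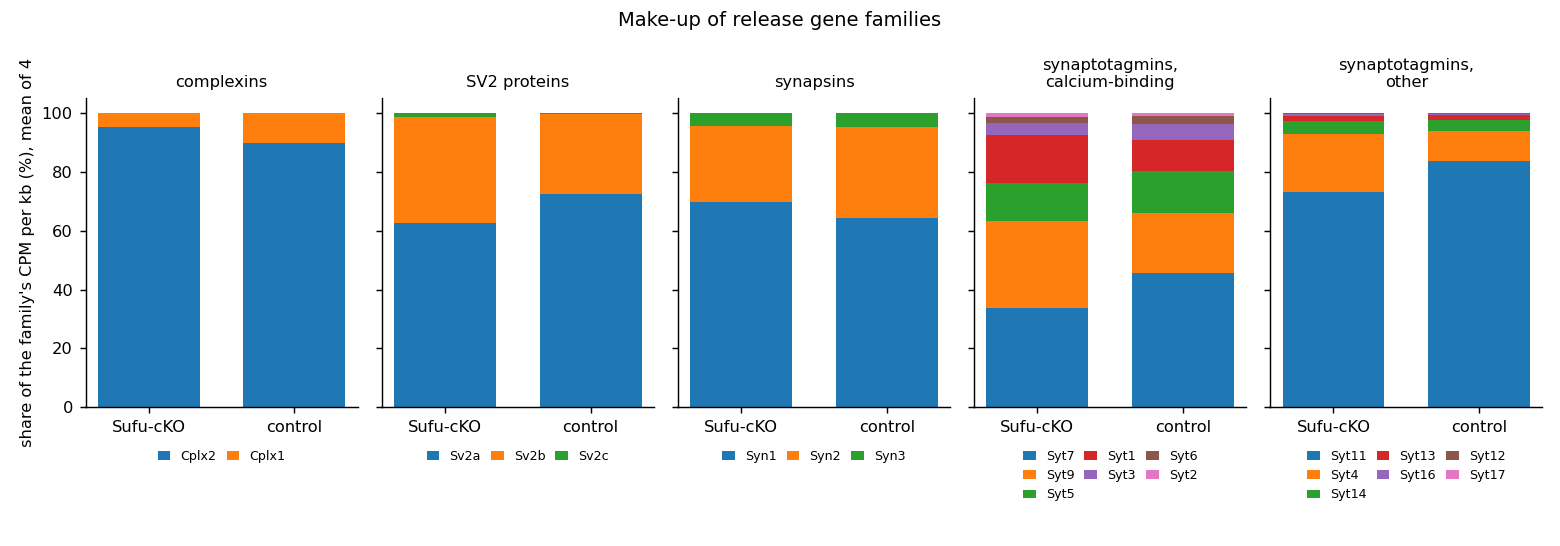
Share of each family's summed level per kilobase of exon (%) contributed by its members, as stacked means of 4 samples, with Sufu-cKO left of control in each family. Complexin transcript is mostly Cplx2 in both genotypes, and Sv2b, Syt1, Syt9 and Syt4 hold larger shares in Sufu-cKO where Sv2a, Syt7 and Syt11 hold smaller ones.

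Syt4 and Syt11 are sister proteins whose first C2 domain does not bind calcium in the usual way, and they differed between the genotypes in opposite directions. Syt4 (ENSMUSG00000024261, chromosome 18, 31437808 to 31447415), which sits on secretory granules and limits or redirects their fusion, had 67.4, 93.6, 74.6 and 101 CPM in Sufu-cKO and 38.5, 40.8, 61.1 and 45.5 CPM in control samples. The gap between the genotypes was narrow, from Mut_295 to Cont_365, and both groups were spread out (log2 0.86, SE 0.175, edgeR adjusted p = 0.0154; without Cont_345 0.0504). Syt11 (ENSMUSG00000068923, chromosome 3, 88744700 to 88775164), an inhibitor of vesicle retrieval, had the highest level per kilobase of all members in both genotypes. It had 442, 411, 416 and 415 CPM in Sufu-cKO and 484, 519, 536 and 451 CPM in control samples. The nearest samples were Mut_295 and Cont_370, and the difference was small (log2 -0.24, SE 0.061, adjusted p = 0.0239). Syt4 held 19.5% ± 3.34 of the non-calcium group in Sufu-cKO and 10.4% ± 1.72 in control samples, and Syt11 held 73.1% ± 3.08 in Sufu-cKO and 83.5% ± 1.82 in control. Syt16 (ENSMUSG00000044912, chromosome 12, 73997761 to 74267916), which lacks calcium-binding residues, rose, with 7.81, 6.37, 6.89 and 7.82 CPM in Sufu-cKO and 3.64, 3.43, 5.02 and 3.87 CPM in control samples (log2 0.85, SE 0.153, adjusted p = 0.00362). Syt12, Syt13, Syt14 and Syt17 did not pass, with log2 values of -0.53, 0.32, 0.16 and 0.16.

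Of the SNAREs, 1 of 4 tested SNAP-25 relatives, 3 of 14 syntaxins and 0 of 7 VAMPs passed, beside 11.0% of all tested genes. Snap25 (ENSMUSG00000027273, chromosome 2, 136713453 to 136782428), a plasma membrane SNARE of the neuronal complex, was the SNAP-25 relative that passed. It had 23.3, 28.1, 26.6 and 29.7 CPM in Sufu-cKO and 19.5, 20.4, 23.2 and 21.8 CPM in control samples, so that Mut_295 and Cont_365 nearly met (log2 0.34, SE 0.092, edgeR adjusted p = 0.0328). It lost its call in 6 of the 8 fits that left out 1 sample, with an adjusted p of up to 0.100, and kept it without Mut_295 and without Cont_365. Its partner Stx1a did not pass, nor did Snap91 (AP180), a clathrin adaptor of vesicle retrieval named after the same family (log2 0.07, adjusted p = 0.718). Stx1a had 14.5 ± 3.10 CPM in Sufu-cKO and 14.1 ± 1.14 CPM in control samples (log2 0.04, SE 0.138, adjusted p = 0.917). Vamp2, the vesicle SNARE of most brain synapses, had 106 ± 4.42 CPM in Sufu-cKO and 102 ± 9.22 CPM in control samples (log2 0.07, SE 0.068, adjusted p = 0.645). Per kilobase, Snap25 was a minor member of its family, at 5.20% ± 0.483 in Sufu-cKO and 4.26% ± 0.337 in control samples. Snap47, a broadly expressed relative, held 50.1% ± 2.77 in Sufu-cKO and 52.4% ± 1.65 in control samples.

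Of all 15382 tested genes, 3462 had an unadjusted p under 0.05 in edgeR, DESeq2 called 13.8% and limma-voom 10.9%. None of the 7 tested VAMPs passed in edgeR, while 2 had an unadjusted p under 0.05, DESeq2 called 1 and limma-voom 0. The 2 were Vamp3 (cellubrevin, of recycling endosomes; log2 0.24, adjusted p = 0.0759), which DESeq2 called and which passed without Mut_295 (adjusted p = 0.00816), and Vamp5 (log2 -0.50, adjusted p = 0.0886). Among 14 tested syntaxins, 3 passed, Stx2, Stx7 and Stx3. Stx2 (ENSMUSG00000029428, chromosome 5, 128984557 to 129008574), a plasma membrane syntaxin of many tissues, had 43.0, 41.1, 43.2 and 38.2 CPM in Sufu-cKO and 33.6, 34.6, 33.6 and 35.4 CPM in control samples (log2 0.27, SE 0.064, edgeR adjusted p = 0.0170). Stx7 (ENSMUSG00000019998, chromosome 10, 24149317 to 24188959), of late endosomes, had 79.8, 85.4, 87.1 and 97.9 CPM in Sufu-cKO and 73.4, 74.0, 71.9 and 71.4 CPM in control samples (log2 0.27, SE 0.065, adjusted p = 0.0195). Both differences were 1.21-fold, with tight controls. Stx3 (ENSMUSG00000041488, chromosome 19, 11775119 to 11819403), used at apical membranes, at ribbon synapses and in dendrites, was scarce, with 3.05, 3.45, 3.60 and 2.84 CPM in Sufu-cKO and 5.56, 4.01, 4.83 and 4.66 CPM in control samples (log2 -0.56, SE 0.154, adjusted p = 0.0371). The other 11 syntaxins lay within log2 -0.10 and 0.15.

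Calls among the syntaxins and Syt11 depended on single samples. Stx2 was not called without Cont_294, Cont_345, Cont_365 or Mut_337 (adjusted p up to 0.0643). Stx7 was not called without Cont_345, Cont_365 or Cont_370 (up to 0.0578). Syt11 was not called without Cont_345, Cont_365, Mut_317 or Mut_337 (up to 0.0863). Stx3 was called without Cont_345 or Mut_337 and in none of the other 6 such fits (up to 0.115). The 8 members Cplx2, Sv2b, Sv2c, Syt16, Syt1, Syt9, Syt7 and Syn1 passed in all 8.

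The proteins that dock vesicles and prime them had no member past the threshold in edgeR. Beside them, 3462 of all 15382 tested genes had an unadjusted p under 0.05, and DESeq2 called 13.8% of all genes and limma-voom 10.9%. Of 4 RIMs, the scaffolds of the release site, 1 had an unadjusted p under 0.05, and neither DESeq2 nor limma-voom called any. That was Rims2, with log2 0.29 (adjusted p = 0.0851; 0.0192 without Mut_340), while Rims1 had 4.27 ± 0.661 CPM in Sufu-cKO and 3.94 ± 0.854 CPM in control samples (log2 0.11, SE 0.183, adjusted p = 0.790). Of 4 Munc13 genes, whose proteins open syntaxin for assembly, 3 had an unadjusted p under 0.05, and DESeq2 and limma-voom called 1 each. Unc13a, the main priming factor of forebrain synapses, had 40.6, 37.9, 33.9 and 38.0 CPM in Sufu-cKO and 24.7, 31.9, 31.1 and 33.8 CPM in control samples. Those groups did not overlap, although Mut_337 and Cont_370 nearly met, and it did not pass (log2 0.31, SE 0.097, adjusted p = 0.0682; DESeq2 0.0342). Unc13c, best known from cerebellar granule cells, had 1.29, 1.30, 1.76 and 1.91 CPM in Sufu-cKO and 0.309, 0.146, 0.379 and 1.55 CPM in control samples. Cont_370 stood with the Sufu-cKO samples, and the log2 difference of 1.34 did not pass (SE 0.556, adjusted p = 0.186). Without Cont_370 the difference was 2.45 and passed (adjusted p = 0.00109), and limma-voom called it with all samples (0.0400). Unc13d, known from granule release in blood cells, had log2 -0.73 (adjusted p = 0.159).

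Of 5 tested syntaxin-binding genes, whose proteins guide or block SNARE assembly, edgeR, DESeq2 and limma-voom each called 0, and 1 had an unadjusted p under 0.05. The all-gene numbers were 3462 of 15382 for the unadjusted p, 13.8% for DESeq2 and 10.9% for limma-voom. Rab3a, the main vesicle GTPase, had 32.4 ± 2.19 CPM in Sufu-cKO and 34.8 ± 4.79 CPM in control samples (log2 -0.10, SE 0.096, adjusted p = 0.602). Of the 4 RAB3 genes, edgeR called 0, 1 had an unadjusted p under 0.05, DESeq2 called 1 and limma-voom 0. The 1 with the low p was Rab3c, which had 38.7, 45.9, 43.4 and 50.9 CPM in Sufu-cKO and 24.5, 28.5, 37.6 and 40.7 CPM in control samples, an overlap of Mut_295 with Cont_370 (log2 0.44, adjusted p = 0.109; 0.0376 without Cont_370). Rab3b varied among samples within both genotypes, with 2.88, 3.66, 5.48 and 4.85 CPM in Sufu-cKO and 2.09, 2.3, 7.49 and 6.04 CPM in control samples (log2 -0.09, SE 0.424, adjusted p = 0.937).

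**Figure D3:**
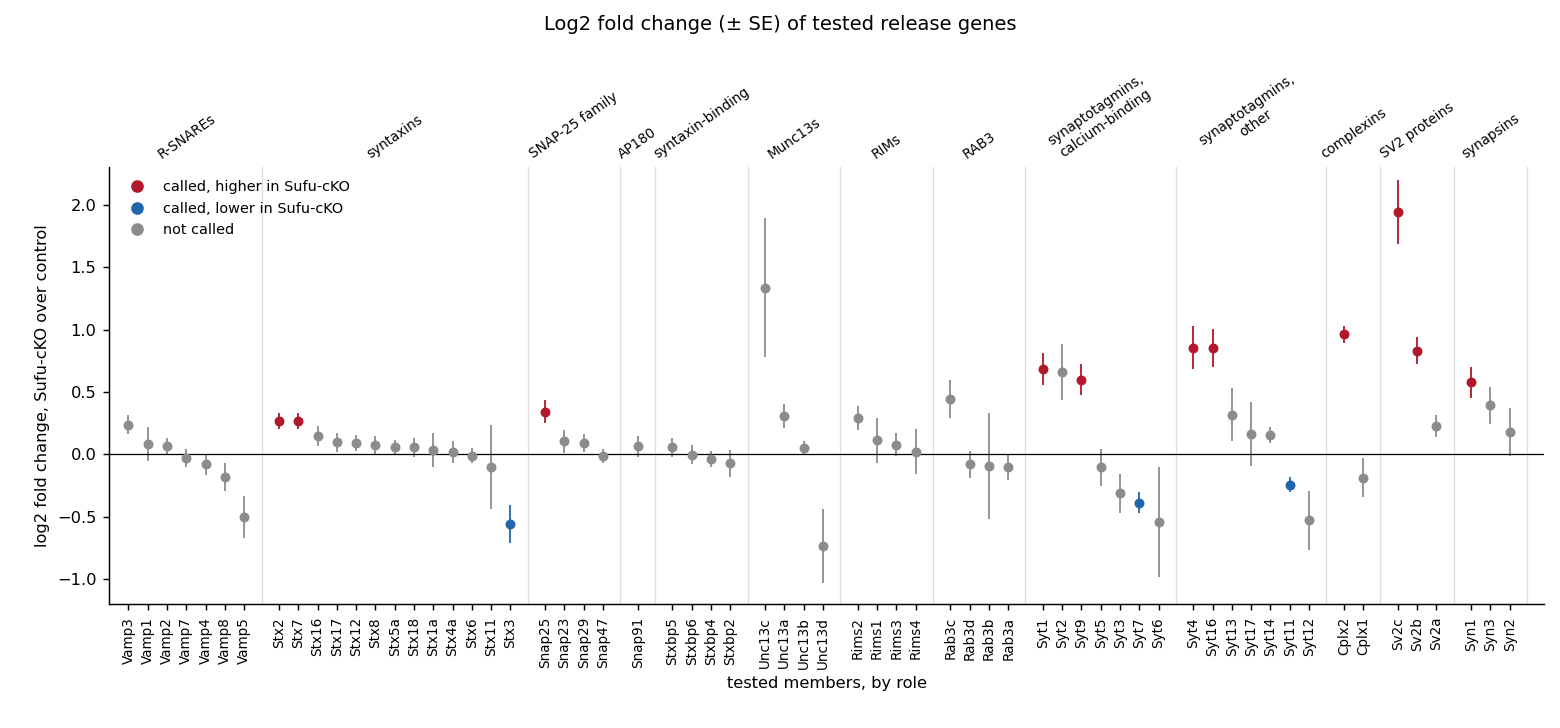
Log2 fold change, Sufu-cKO over control, of tested members grouped by role, with bars of ± 1 SE; red and blue points passed the test and grey points did not. All 8 members that passed with the largest rises, from Sv2c at 1.94 to Syn1 at 0.58, belong to the synaptotagmins, complexins, SV2 proteins and synapsins.

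Per kilobase of exon, which allows genes to be compared, the most abundant members were mostly those of general trafficking. Syt11 led with 80.9 ± 2.71 CPM per kilobase in Sufu-cKO and 95.6 ± 7.25 in control samples. In Sufu-cKO Cplx2 came next at 53.8 ± 1.62, followed by Stx12 of recycling endosomes (48.3 ± 4.33), Vamp3 (42.6 ± 5.04) and Snap47 (38.1 ± 1.93). In control samples Cplx2, at 27.6 ± 2.78, stood behind Stx12 (45.3 ± 1.59), Snap47 (38.5 ± 1.33) and Vamp3 (36.1 ± 1.43), and next to Vamp2 (26.7 ± 2.42), whose values it overlapped. In Sufu-cKO samples the values of Cplx2 and Stx12 overlapped, those of Stx12 and Vamp3 overlapped too, as did those of Vamp3 and Snap47. Next by mean level came Vamp2, Snap29, Stx16, Stx7, Vamp7 and Syt4, at 17.7 to 27.9 CPM per kilobase in Sufu-cKO and 11.9 to 26.7 in control samples. Snap29, Stx16 and Vamp7 had log2 differences of 0.09, 0.15 and -0.03, Stx12 of 0.09 and Snap47 of -0.01, and none passed.

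Of the members, 35 were listed as genes of regulated release in neurons and 24 as genes of general trafficking. The trafficking list also holds genes of narrower use, such as Unc13d and Stx3. The remaining members were in neither list, among them Syt4, Syt11 and Syt16, which passed the test. Of the neuronal set, 8 of 33 tested members passed (24.2%, against 11.0% of all tested genes). They were 7 higher (21.2%, against 5.34%) and 1 lower (3.03%, against 5.64%), with a median log2 fold change of 0.11. Of the trafficking set, 3 of 23 passed (13%, near the 11.0% of all tested genes), 2 higher and 1 lower, with a median of 0.02. The trafficking count was 0 without Cont_365 (5 with an unadjusted p under 0.05, beside 2972 of all 15512 genes) and 1 without Cont_294, Cont_345 or Cont_370. In the stricter 1.2-fold test it was 0, with 3 of 23 at an unadjusted p under 0.05, beside 1680 of all 15382 genes. The neuronal count in that test was 4 of 33 (12.1%, against 4.65% of all genes). DESeq2 called 4 of the trafficking set and limma-voom 3, beside 13.8% and 10.9% of all genes. The neuronal set summed to 1246 to 1335 CPM in Sufu-cKO and 995 to 1121 CPM in control samples, without overlap, and Cplx2 had the largest difference in CPM of its members. The trafficking set summed to 1182 to 1295 CPM in Sufu-cKO and 1161 to 1183 CPM in control samples. Whether the 2 sets differ from each other was not tested.

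**Figure D4:**
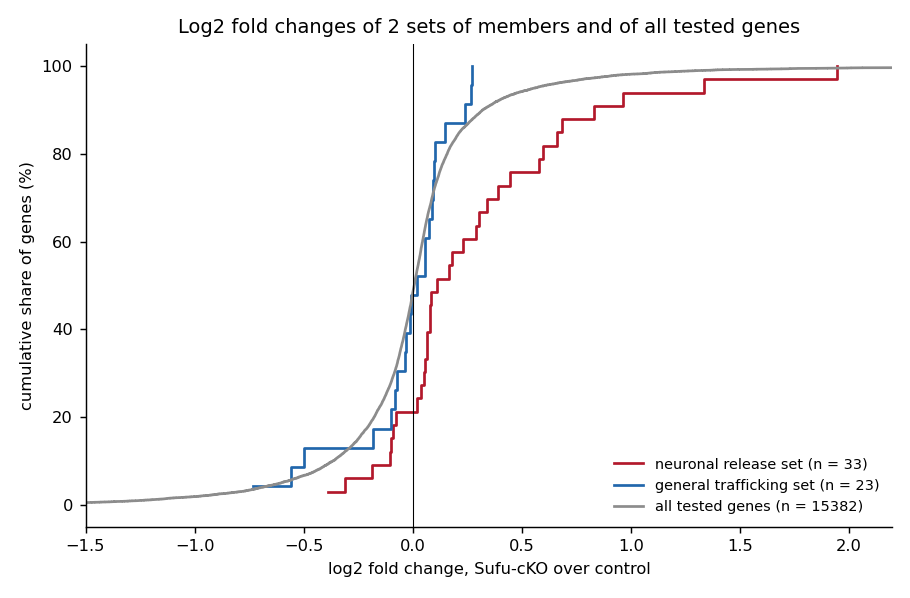
Cumulative share (%) of genes at or below each log2 fold change, Sufu-cKO over control, for the neuronal release set (n = 33), the general trafficking set (n = 23) and all 15382 tested genes. The neuronal curve lies to the right of the all-gene curve at the lower quartile (0.04 against -0.12), the median (0.11 against 0.01) and the upper quartile (0.44 against 0.12). The trafficking curve stays close to the all-gene curve, with a median of 0.02.

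Genes of the release machinery outside the naming rule gave a mixed picture. Of 58 tested, 10 passed (17.2%, against 11.0% of all tested genes). They were 6 higher (10.3%, against 5.34%) and 4 lower (6.90%, against 5.64%), with a median log2 fold change of 0.09. Doc2a, a calcium sensor of spontaneous release, averaged 27.6 ± 2.09 CPM in Sufu-cKO and 4.79 ± 0.796 CPM in control samples (log2 2.52, SE 0.123, edgeR adjusted p = 3.08e-07). Cadps, which primes dense-core vesicles, fell to 85.1 ± 7.95 CPM in Sufu-cKO, against 141.9 ± 13.6 CPM in control samples (log2 -0.74, SE 0.083, adjusted p = 0.000132). Genes that rose further were Synpr, a synaptophysin relative (log2 0.81), Lin7a and Apba1, which act together in a presynaptic scaffold (0.77 and 0.58), and Napb, a neuronal SNAP that helps take spent SNARE complexes apart (0.42). Sh3gl2 (-0.50), Cadps2 (-0.39) and Sypl (-0.30) fell, and Ppfia1 rose by 0.19 on the log2 scale. Sh3gl2 was not called without Cont_345, Cont_365 or Mut_317 (adjusted p up to 0.0623). Cadps2 was not called without Cont_294, Cont_345, Cont_370, Mut_317 or Mut_337 (up to 0.0951). Ppfia1 was called in 1 of the 8 fits that left out a sample, the one without Mut_340 (up to 0.134 in the others). The general vesicle protein Syp (synaptophysin) had log2 0.08 (adjusted p = 0.599), and Nsf, the ATPase that recycles all SNAREs, log2 0.13 (adjusted p = 0.145).

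Markers of cell types moved between the genotypes beside these genes. Of all tested genes, 11.0% passed, 5.34% higher and 5.64% lower. Of 15 tested neuron markers, 5 passed, all higher (Dcx, Ina, Mapt, Stmn3 and Gap43), with a median log2 fold change of 0.16 and a sum of 3306 to 3587 CPM in Sufu-cKO and 2743 to 3158 CPM in control samples. The excitatory cortical neuron markers summed to 779 to 997 CPM in Sufu-cKO and 826 to 997 CPM in control samples, and 2 of 9 passed, 1 higher and 1 lower. Of 8 neural progenitor markers, 5 passed, all higher, while 3 had negative log2 fold changes (down to -0.34) and did not pass. The 8 summed to 3678 to 3853 CPM in Sufu-cKO and 2667 to 2914 CPM in control samples. The part of these shifts in the member genes was not tested.

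Of all 15382 tested genes, 3462 had an unadjusted p under 0.05 in edgeR, DESeq2 called 13.8% and limma-voom 10.9%. GABAergic neuron markers had a median log2 fold change of 1.19, and 0 of 8 passed in edgeR, with 1 at an unadjusted p under 0.05. DESeq2 called 1 and limma-voom 0. Their sums varied within both genotypes: 217.8, 34.88, 100.9 and 205.6 CPM in Mut_295, Mut_317, Mut_337 and Mut_340, and 27.7, 11.4, 48.4 and 133.2 CPM in Cont_294, Cont_345, Cont_365 and Cont_370. All 7 choroid plexus markers had negative log2 fold changes, and edgeR called 5 of them, DESeq2 7 and limma-voom 6. They summed to 78.7 to 254 CPM in Sufu-cKO and 446 to 710 CPM in control samples. Cajal-Retzius markers summed to 188 to 223 CPM in Sufu-cKO and 223 to 248 CPM in control samples, endothelial markers to 206 to 253 CPM in Sufu-cKO and 252 to 287 CPM in control samples, and microglia markers to 28.8 to 36.0 CPM in Sufu-cKO and 37.2 to 49.7 CPM in control samples. Of these, 1 of 6, 2 of 6 and 3 of 6 passed, all lower. Erythroid markers summed to 2833 to 3165 CPM in Sufu-cKO and 3217 to 4087 CPM in control samples, and edgeR called 0 of 8, although 3 had an unadjusted p under 0.05. DESeq2 called 2 and limma-voom 0. No marker of any list was at 0 in all samples. The part of these markers in the members' differences was not tested.

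Within a genotype the 11 members that rose did not keep a single order of samples, yet some samples recurred. Mut_340 was the highest Sufu-cKO sample for 8 of the 11 and Mut_295 the lowest for 5. Cont_365 was the highest control for 6 and Cont_294 the lowest for 5. Summed over all members, the level was 3103, 3163, 3117 and 3256 CPM in Mut_295, Mut_317, Mut_337 and Mut_340, and 2811, 2895, 2993 and 2914 CPM in Cont_294, Cont_345, Cont_365 and Cont_370.

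The 7 members that were not tested were near or at 0 in both genotypes. Cplx3, Cplx4 and Syt8 had at most 2 counts in any sample, Syt10 had 1 to 6 and Syt15 0 to 12. Stx19, a syntaxin of epithelia, and a second Vamp5 gene ID (ENSMUSG00000102671) had 0 counts in all 8 samples, which allows up to 0.086 to 0.109 CPM per sample (3 counts of each total, counting error only).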

How the data were processed

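Dorsal forebrain RNA of 4 Sufu-cKO and 4 control E12.5 mouse embryo samples was sequenced from TruSeq stranded mRNA libraries. Reads were aligned with STAR 2.4.2a to GRCm38, per the submitters' processing notes. How reads were counted (program, strand setting, annotation release) and which program made the deposited test is not given in the sources used here. All tests used raw counts per gene as deposited. Their second deposited table holds a normalised signal (each count divided by 1 size factor per sample), a fold change as a ratio, and p-values. A spreadsheet had made a formula of 1 gene ID there, which was restored. Value columns that matched no sample numbered 0.

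Counts were tested in R 4.3.3 with edgeR 4.0.16: filterByExpr defaults (minimum count 10, total 15) left 15382 of 25299 genes with any count, libraries were scaled by TMM factors, and genotypes were compared by the robust quasi-likelihood F-test, 2-sided, with Benjamini-Hochberg adjustment over all tested genes. CPM use TMM library sizes and are given as mean ± SD (n = 4). Fold changes divide Sufu-cKO by control, with an SE back-calculated from the F statistic. The biological coefficient of variation was 12.8%. Total counts of 27514357 to 34878838 per sample make counting error small for all but the rarest members. No pair of samples within a group agreed within counting noise (chi-square per degree of freedom 8.40 to 28.5), as repeat deposits of 1 library would, and each sample was counted once. Levels per kilobase divide CPM by GENCODE M21 exon length, available for 71 members, which may differ from the release used for counting. Promoters are RefSeq's on GRCm38.p6; the motifs were chosen after results were seen.

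The members, lists and tests were chosen with earlier results of these data known. Named genes are every member that passed, the 12 with the highest level per kilobase, founding members of each family, and the 6 companion genes with the smallest p; any other gene was named with its values known, to complete a count. Some genes that this rule names are left out of the text and figures, although the counts include them. Alternatives were other scalings and filters, DESeq2 1.42.0, limma-voom (limma 3.58.1), non-robust edgeR, a 1.2-fold test, the authors' deposited test, and each sample left out. The gene test was tested on data simulated at the real mean levels and library sizes, with 1 biological coefficient of variation for all genes. It called 3 of 50 genes changed 1.25-fold, 31 of 49 changed 1.5-fold and 49 of 50 changed 2-fold. Of 15057 unchanged genes it called 11. A member that did not pass can therefore still differ by 1.25-fold or even by 1.5-fold. The simulation changed far fewer genes than passed in the data, so its rates may not hold there.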

Additional observations from a re-analysis of the deposited data

Results flagged for a closer look

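Among the genes of the naming rule and the others given in the text, 132 groups of 4 were searched, and in 6 of them 1 sample stood apart from its 3 fellows by Dixon's criterion for 4 values. Chance meets it in about 1 in 20 groups. Sv2b was high in 1 control, at 23.2 CPM in Cont_365 against 18.2 to 18.9 CPM in the other controls, and Unc13c in another, at 1.55 CPM in Cont_370 against 0.146 to 0.379 CPM. The other 4 were in Sufu-cKO samples. Syt11 was high in Mut_295 at 442 CPM against 411 to 416 CPM, and so was Sv2a, at 38.9 CPM against 32.1 to 32.7 CPM. Snap91 was low in Mut_337 at 30.1 CPM against 34.7 to 35.3 CPM. Gli1, read as a check of the labels, was low in Mut_340 at 43.6 CPM against 50.9 to 52.1 CPM. Their sources were not tested.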

How the results depend on the processing

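None of the 14 members that passed changed direction under the 10 other settings or with any sample left out. Their number was 6 in the 1.2-fold test, where 716 genes in all, 4 of the neuronal set, 0 of the trafficking set and 5 companion genes passed (edgeR). At an unadjusted p under 0.05 in that test were 3 trafficking genes and 1680 of all 15382 genes. The authors' deposited test called 1 of 23 trafficking genes (4.35%, against 5.78% of all genes). DESeq2 called 17 of 58 companion genes (29.3%, against 13.8% of all genes). With 1 sample left out, the calls ranged from 9 to 14 for members, 1079 to 1836 for all genes, 7 to 9 for the neuronal set, 0 to 3 for the trafficking set and 7 to 12 for companion genes; each lowest member and all-gene count was without Cont_345. The 1.2-fold test lost Syt9, Syt7, Syn1, Stx2, Stx7, Syt11, Snap25 and Stx3, and no low-count filter lost Syt4 (adjusted p = 0.0638) and Stx3 (0.0513). Over all fits, 12 of the 65 tested members changed sign, none of them called. Among those whose values are given these were Vamp7 (0.0196 without Mut_295; -0.0825 to 0.0196 over such fits), Stx1a (-0.000701 without Cont_294, -0.12 without Mut_295; -0.12 to 0.12), Snap47 (0.0144 without Mut_340; -0.0469 to 0.0144) and Rab3b (0.0587 by limma-voom, 0.259 without Cont_365, 0.0771 without Cont_370, 0.0506 without Mut_295; -0.326 to 0.259). Causes were not tested. Other scalings moved the all-gene median log2 fold change to between -0.01 and 0.01. No paired analysis was possible because the sample numbers are not shared between the genotypes. Depth limits only members with a few counts per sample.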
